A study of Mus musculus with 15 samples.

Results

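Genes that mark the vessel wall and carry its growth signals, 10 in all, were followed across 5 sorted mouse cell populations: the junction and surface genes *Pecam1*, *Cdh5*, *Esam*, *Cldn5*, *Ptprb* and *Cd93*, and the receptor tyrosine kinases *Kdr*, *Flt1*, *Tek* and *Tie1*. They were chosen by name, with earlier results of these data known, among the 10222 gene symbols with deposited values, and all 10 were found. The cells came from C57BL/6 mice that carry 1 reporter allele in which citrine fluorescence marks *Il33* expression, and they were sequenced directly after sorting, without culture. From white adipose tissue (WAT) came CD31+ endothelial cells and 2 kinds of PDGFRα+ mesenchymal stromal cells, which the labels call mesenteric, with and without citrine (Il33+ and Il33- WAT-MSC). From lung came Il33+ MSC and EpCAM+ epithelial cells. Each population had 3 libraries, from independent experiments. WAT-MSC were gated as CD31-, the endothelial cells as CD31+, and the gate of the lung MSC is not described separately in the sources used here. The sort protocol of the epithelial cells names no CD31, but the study describes these cells as CD31-. CD31 is the product of *Pecam1*, so the gap in *Pecam1* between endothelial cells and WAT-MSC was selected by the sort, that to epithelial cells may have been, and its values are given as a description, with counts also given over the other 9 genes.

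Endothelial cells line blood and lymph vessels and are held to one another by junctions. VE-cadherin (*Cdh5*) forms the adherens junction, claudin-5 (*Cldn5*) seals the tight junction, and PECAM-1 and ESAM are immunoglobulin-type adhesion proteins at the same borders. VE-PTP (*Ptprb*) is a phosphatase that acts on VE-cadherin and on Tie2. VEGFR2 (*Kdr*) is the main signalling receptor for VEGF-A, VEGFR1 (*Flt1*) binds VEGF-A tightly and limits its supply, Tie2 (*Tek*) is the receptor for angiopoietins, and Tie1 is its partner without a well established ligand of its own.

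Values are RPKM, read numbers divided by transcript length and by the library's mapped reads, which the authors deposited per transcript and which were summed here per gene symbol. A level in RPKM is already divided by transcript length, so levels of different genes are set side by side below. Other differences between genes, as in amplification or in the assignment of reads to transcripts, were not corrected. Alignments ranged from 42711843 to 60773158 per library; counts per gene were not used here, so counting error is unknown and errors are the SD over 3 libraries. Replicate 1 of the endothelial cells listed 11% of symbols at 0, against 1.63 to 7.03% in the other libraries. In the epithelial libraries *Scgb1a1*, a secretoglobin of airway cells, took 57.7 to 62.9% of the summed RPKM, which leaves less for every other gene of those libraries. Endothelial markers outside the 10 genes summed to 337 to 350 RPKM in the endothelial libraries, with all 10 of them above 1 RPKM on average. The same libraries also held stromal markers, at a median of 28.0, 32.4 and 63.8% of their Il33+ WAT-MSC level in replicates 1, 2 and 3, and pericyte and smooth muscle markers at 231 to 300 RPKM in sum, against 28.1 to 51.8 in WAT-MSC. The part of these other cells in the values below was not tested, and in such pooled cells a smaller share of expressing cells and less RNA per cell cannot be told apart.

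Sequence is shown at 2 places to which the results return. The first is a coding exon that NM_001290551, a listed *Tek* transcript, lacks. The share of *Tek* assigned to this transcript ran from 6.63 to 36.0% in endothelial and from 34.95 to 72.0% in stromal libraries. These ranges overlap, and no test of them is given. *Tek* lies on the plus strand of chromosome 4 (chr4:94739086-94874976, GRCm38, the assembly also called mm10). Of its 3 listed transcripts, NM_001290551 lacks exon 4 of the 23 exons of NM_013690, and no other exon. That exon is coding, spans chr4:94799127-94799279 and is 153 bases long, which is 51 whole codons, so the reading frame is kept without it. The GENCODE M21 transcript matched to NM_013690 gives it as

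Tek exon 4: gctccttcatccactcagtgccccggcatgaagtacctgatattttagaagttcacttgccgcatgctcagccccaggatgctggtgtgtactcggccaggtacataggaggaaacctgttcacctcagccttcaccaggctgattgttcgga

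The second set is the stretch before the start of *Tie1* and of *Cldn5*, a receptor and a junction gene that both stayed under 5 RPKM in each of the 12 libraries that are not endothelial. Promoter sequences from RefSeq (GRCm38.p6) were matched for 5 of the 10 genes, *Kdr*, *Flt1*, *Tek*, *Tie1* and *Cldn5*. For *Kdr*, *Flt1* and *Tek* the 250 bases before the listed start lie wholly or partly inside the annotated gene span, so only the other two are printed, each 250 bases on the gene's strand, with every GGAA or its reverse complement TTCC in capitals.

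Tie1 (chr4:118489850-118490099, minus strand): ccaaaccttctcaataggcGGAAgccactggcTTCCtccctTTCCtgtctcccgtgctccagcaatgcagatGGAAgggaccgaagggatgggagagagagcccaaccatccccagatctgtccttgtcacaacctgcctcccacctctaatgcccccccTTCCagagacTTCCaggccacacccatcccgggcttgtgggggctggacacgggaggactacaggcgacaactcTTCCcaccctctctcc

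Cldn5 (chr16:18776597-18776846, plus strand): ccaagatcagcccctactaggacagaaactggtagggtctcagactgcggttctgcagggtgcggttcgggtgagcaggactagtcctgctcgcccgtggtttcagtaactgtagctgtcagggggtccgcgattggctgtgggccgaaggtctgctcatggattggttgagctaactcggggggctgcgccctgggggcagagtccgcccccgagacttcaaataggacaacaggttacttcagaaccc

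GGAA is the core bound by ETS factors, a family that includes ERG. It occurred 7 times in the stretch of *Tie1* and 0 times in that of *Cldn5*, and 93.45% of all 32851 promoter stretches of 250 bases held at least 1, so its presence sets *Tie1* apart from few genes. The longer form AGGAAG, searched on both strands and overlapping the core, occurred once before *Tie1*, not before *Cldn5*, and in 29.48% of all stretches. The SOX-type letters AACAAT occurred before neither, and in 9.424% of all stretches. These counts describe letters in these windows and say nothing of which factor binds.

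Among the 10 genes the endothelial libraries showed a high and a low tier. *Cdh5* was at 144.38, 191.33 and 178.31 RPKM in replicates 1, 2 and 3, or 171 ± 24.2 (SD, n = 3), rank 95 of the 10222 symbols in that population. *Pecam1* was at 198.41, 144.97 and 145.83 RPKM. *Ptprb* was at 173, 103.29 and 86.95 RPKM. The C-type lectin-like receptor gene *Cd93*, whose product adheres endothelial cells to matrix, was at 115.71, 99.34 and 93.61 RPKM. These 4 genes stood above the other 6 in every endothelial library. The lower tier had means between 20.3 ± 7.30 RPKM (*Kdr*) and 30.0 ± 6.60 RPKM (*Esam*), ranks 1171 and 770, and their ranges over libraries overlapped one another, except that *Kdr* (11.91 to 25.28 RPKM) lay under *Esam* (26.11 to 37.65 RPKM).

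The 3 endothelial libraries did not move together in the receptors. *Tie1* was at 46.05 RPKM in replicate 1 against 16.12 and 15.7 in the other two, a log2 difference of 1.48 from their mean. *Kdr* was at 11.91 RPKM in replicate 1 against 23.68 and 25.28, and *Flt1* was at 14.6 against 26.67 and 31.49, log2 differences of -0.98 and -0.94. Replicate 1 was thus the highest library for *Tie1* and *Tek* and the lowest for both VEGF receptors. It also had the lowest level of *Gpihbp1*, the lipoprotein lipase anchor of capillaries, picked here after its values were seen (1.24 RPKM against 23.45 and 50.49), and the largest share of symbols at 0; the part of library quality in these gaps was not tested.

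**Figure D1:**
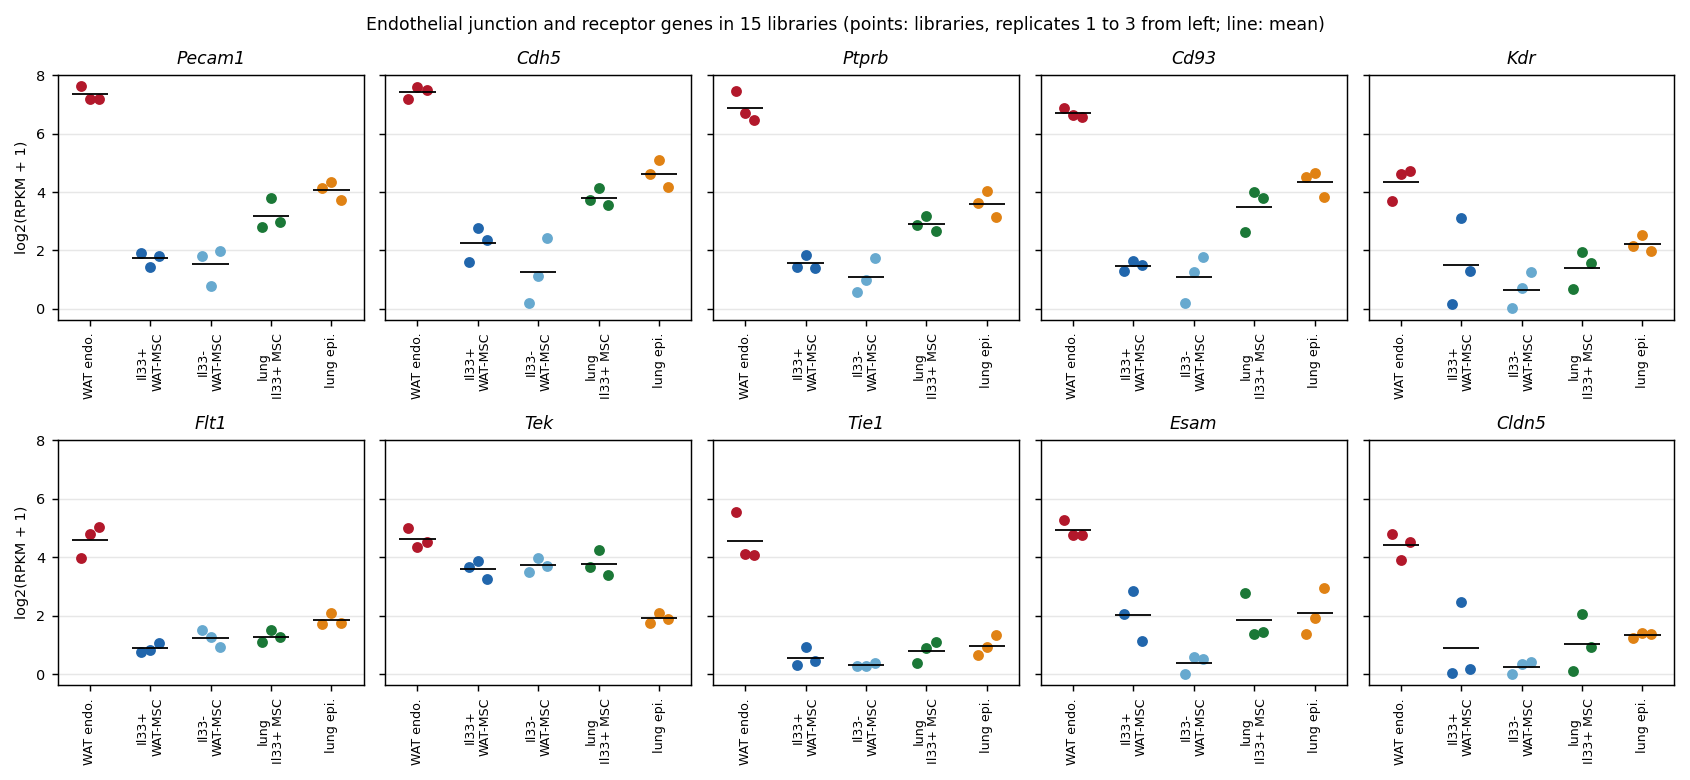
Level of each of the 10 genes in the 15 libraries, as log2(RPKM + 1) on the vertical axis, with the 5 populations along the horizontal axis; points are libraries in the order of replicates 1 to 3 and lines are means of log2 values. Every gene was highest in the 3 endothelial libraries, and *Tek* alone stayed above 8 RPKM in all WAT-MSC and lung MSC libraries.

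The first question was how far these genes separate endothelial cells from the *Il33*-expressing stromal cells of the same tissue. Against Il33+ WAT-MSC, 8 of the 10 genes were called higher in endothelial cells (limma on log2(RPKM + 1), Benjamini-Hochberg adjusted p under 0.05), where 3.34% of all 8665 genes tested were called higher. In all 10 the 3 endothelial libraries lay above the 3 stromal ones, which held for 10.2% of genes tested. The median log2 fold change of the 10 genes was 3.86, against -0.18 over all genes tested. Without the gated *Pecam1*, 7 of 9 genes were called, all 9 lay higher without overlap and the median was 3.71. All 10 passed the filter on low values, most of them through the endothelial libraries where they are high. They were also chosen with earlier results of these data known, so the counts describe these genes and do not test the list.

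*Cdh5* was at 2.02, 5.82 and 4.17 RPKM in Il33+ WAT-MSC, far under the endothelial libraries, with a log2 fold change of 5.17 (SE 0.34) and a limma adjusted p of 0.00017. *Ptprb* was at 1.71, 2.58 and 1.62 RPKM there, a log2 fold change of 5.31 (SE 0.34). *Cd93* was at 1.47, 2.08 and 1.81 RPKM, a log2 fold change of 5.22 (SE 0.28). For these genes the 3 stromal libraries lay within a few RPKM of each other and none approached the endothelial range. *Pecam1*, the gated gene, was at 2.78, 1.73 and 2.51 RPKM in the cells sorted as CD31-, or 1.43% of its endothelial mean.

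*Tie1* was at 0.23, 0.89 and 0.37 RPKM in Il33+ WAT-MSC, with a log2 fold change of 4.01 (SE 0.49) and a limma adjusted p of 0.00229. *Flt1* was at 0.68, 0.77 and 1.1 RPKM, with a log2 fold change of 3.71 (SE 0.40) and an adjusted p of 0.00146 by limma. Both receptors were therefore near or under 1 RPKM in every stromal library of this group. The added 1 in the log scale understates the fold of genes this low.

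*Kdr*, *Cldn5* and *Esam* varied among the Il33+ WAT-MSC libraries, and replicate 2 was the highest for each. *Kdr* was at 0.11, 7.55 and 1.45 RPKM in replicates 1, 2 and 3. *Cldn5* was at 0.02, 4.59 and 0.14 RPKM. *Esam* was at 3.21, 6.23 and 1.2 RPKM. In the same library endothelial markers outside the 10 genes summed to 19.3 RPKM, against 3.69 and 10.4 in replicates 1 and 3. Of that 19.3 RPKM, 11.5 came from *Gpihbp1* alone, named here after its values were seen. Without it the sum of replicate 2 lay under that of replicate 3. Of the 10 markers 6 averaged under 1 RPKM in this population, and none was at 0. Their part in the 3 values was not tested. With these libraries the log2 fold change of *Kdr* was 2.83 (SE 0.69, 95% interval 1.26 to 4.40) and did not pass (limma adjusted p = 0.0643), while without Il33+ WAT-MSC replicate 2 it was 3.62 with an adjusted p of 0.0212. *Kdr* passed in 6 of 15 alternatives in all, among them median-ratio scaling (0.0313), quantile normalization (0.0339), a fit over all 15 libraries (0.00491) and the fit without endothelial replicate 1 (0.0419). *Cldn5* passed with all libraries (log2 fold change 3.51, SE 0.65, limma adjusted p = 0.0198), and lost the call when endothelial replicate 2 (log2 fold change 3.76, adjusted p = 0.0566), Il33+ WAT-MSC replicate 1 (3.07, 0.0866) or Il33+ WAT-MSC replicate 3 (3.15, 0.0805) was left out. It also lost the call with a pseudocount of 0.1 (0.0738) or with no filter on low values (0.0544). *Esam* passed with a log2 fold change of 2.91 (SE 0.45, limma adjusted p = 0.00858).

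*Tek* was the exception among the 10 genes. The endothelial libraries held 31.37, 19.21 and 21.94 RPKM of it, and Il33+ WAT-MSC held 11.73, 13.51 and 8.52 RPKM. The groups did not overlap, but the stromal mean was 46.6% of the endothelial mean, where the other 9 genes were at 1.43 to 15%. The log2 fold change was 1.03 (SE 0.32, 95% interval 0.31 to 1.75) and did not pass (limma adjusted p = 0.140). A fit over all 15 libraries, which shares the spread of all populations, gave the same fold change with a limma adjusted p of 0.0345, and no other alternative moved *Tek* past the threshold here.

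**Figure D2:**
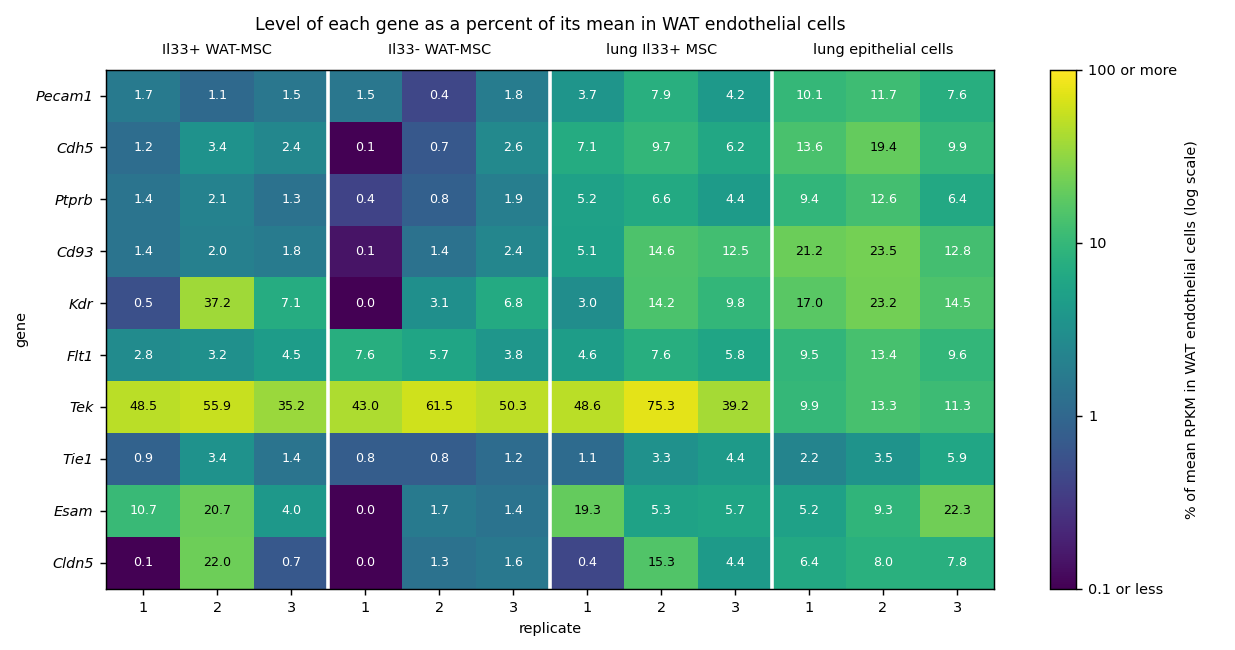
Each gene's RPKM in the 12 libraries that are not endothelial, as a percent of its mean over the 3 WAT endothelial libraries; colour follows a log scale and the printed numbers are the percentages. *Tek* stands out in all 9 stromal libraries, and *Kdr*, *Esam* and *Cldn5* are raised in Il33+ WAT-MSC replicate 2.

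In the stromal cells without citrine *Tek* was again the gene nearest its endothelial level. In Il33- WAT-MSC 9 of the 10 genes were called lower than in endothelial cells, where 4.10% of the 8713 genes tested were called in that direction, and the median log2 fold change was 4.42 against -0.17 over all genes tested. All 10 lay above Il33- WAT-MSC without overlap, as did 10.5% of genes tested. Without *Pecam1*, 8 of 9 genes were called and the median was 4.27. The endothelial libraries are shared with the comparison above, so the result is not independent of it. *Kdr* was at 0.01, 0.63 and 1.37 RPKM in Il33- WAT-MSC, with a log2 fold change of 3.69 (SE 0.48) and a limma adjusted p of 0.00216. *Esam* was at 0, 0.51 and 0.42 RPKM, with a log2 fold change of 4.57 (SE 0.38). *Cldn5* was at 0, 0.28 and 0.33 RPKM, with a log2 fold change of 4.15 (SE 0.41). None of these libraries reached the level of Il33+ WAT-MSC replicate 2. *Tek* was at 10.4, 14.87 and 12.16 RPKM, 51.6% of its endothelial mean, with a log2 fold change of 0.89 (SE 0.32, 95% interval 0.17 to 1.60) and a limma adjusted p of 0.185.

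Whether citrine separates stromal cells in these genes was tested by setting Il33+ against Il33- WAT-MSC. Of the 10 genes 8 passed the filter, with *Tie1* and *Cldn5* too low, and 0 of the 8 were called by limma (adjusted p from 0.137 to 0.902, with 1 of the 8 at an unadjusted p under 0.05), where 1.57% of the 8448 genes tested were called. *Esam* came nearest, at 1.2 to 6.23 RPKM in Il33+ and 0 to 0.51 RPKM in Il33- cells, groups that did not overlap (8.84% of genes tested lay higher in Il33+ cells without overlap), with a log2 fold change of 1.65 (SE 0.46, 95% interval 0.64 to 2.67) and an adjusted p of 0.137 by limma. Its transcripts are listed as NM_027102 and NR_136939, which share reads, and their sum was used. For *Tek* the interval of the log2 difference ran from -0.74 to 0.45, and for *Pecam1* from -0.68 to 1.09, so differences of up to about those sizes cannot be told from none with 3 libraries of each.

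The lung populations held more of the high tier than the WAT stroma did. Against lung Il33+ MSC, 9 of the 10 genes were called higher in WAT endothelial cells (4.10% of the 8763 genes tested were), with a median log2 fold change of 3.34 against -0.14 over all genes tested. All 10 were higher without overlap, as were 11.8% of genes tested. Without *Pecam1*, 8 of 9 were called and the median was 3.31. *Cdh5* was at 12.15, 16.63 and 10.67 RPKM in lung Il33+ MSC, a log2 fold change of 3.62 (SE 0.26) for endothelial cells over them. *Cd93* was at 5.2, 15.07 and 12.87 RPKM, a log2 fold change of 3.22 (SE 0.37). These lung libraries lay above every WAT-MSC library for both genes and under every endothelial one. *Tek* was at 11.76, 18.21 and 9.48 RPKM, 54.4% of its endothelial mean, with a log2 fold change of 0.85 (SE 0.32, limma adjusted p = 0.199).

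Set against Il33+ WAT-MSC directly, lung Il33+ MSC were higher in 4 of the 8 genes that passed the filter, where 3.50% of the 8554 genes tested were called higher. The 4 were *Pecam1* (log2 fold change 1.47, SE 0.32, limma adjusted p = 0.0215), *Cdh5* (1.56, SE 0.33, adjusted p = 0.0180), *Ptprb* (1.35, SE 0.28, adjusted p = 0.0170) and *Cd93* (2.00, SE 0.36, adjusted p = 0.00868), which are the 4 genes of the high tier. *Kdr*, *Flt1*, *Tek* and *Esam* were not called, with log2 fold changes from -0.16 to 0.41. Leaving out *Pecam1*, whose product gated the WAT-MSC as CD31-, 3 of 7 were called. Over the 15 alternatives *Pecam1* lost its call in 7, *Cdh5* and *Ptprb* in 4 each and *Cd93* in 1. Without lung Il33+ MSC replicate 2, the highest for these 4 genes, 0 of them were called, with adjusted p from 0.0586 (*Cd93*) to 0.118 (*Pecam1*). Their log2 fold changes were then 1.17 (*Pecam1*), 1.39 (*Cdh5*), 1.21 (*Ptprb*) and 1.74 (*Cd93*). Without lung Il33+ MSC replicate 1 or without Il33+ WAT-MSC replicate 3, 2 were called. With sequencing lane as a covariate *Ptprb* and *Cd93* stayed past the threshold. Endothelial markers outside the 10 genes summed to 15.8 to 22.9 RPKM in lung Il33+ MSC and 3.69 to 19.3 RPKM in Il33+ WAT-MSC. Of these 10 markers 3 and 6 averaged under 1 RPKM, and of the 4 tested 0 were called higher in lung Il33+ MSC. Without a call, 3 of the 10 lay higher there without overlap and the rest overlapped. The share of all genes that did so was not taken. *Erg* was among the 3 (7.12 to 12.11 against 0.8 to 5.96 RPKM). *Gpihbp1* made up 11.5 of the 19.3 RPKM, and its mean went the other way (2.89 against 4.02 RPKM). Both were named after their values were seen. Leukocyte and platelet markers summed to 57.5 to 90.9 and 3.92 to 19.9 RPKM, largely *Cd74* (means 47.1 and 7.93). Of 4 of them tested, 2 were called higher in lung Il33+ MSC. *Sftpc*, the surfactant gene of alveolar epithelium, was at a mean of 53.8 RPKM in lung Il33+ MSC against 0.683. The part of other lung cells in the 4 calls among the 10 genes was not tested.

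The lung epithelial cells, sorted on EpCAM, carried the highest levels of the high tier outside the endothelium. *Cdh5* was at 23.28, 33.26 and 16.9 RPKM, *Cd93* at 21.79, 24.14 and 13.19 RPKM, and *Pecam1* at 16.4, 19.1 and 12.36 RPKM. All 10 genes were nevertheless called higher in WAT endothelial cells, where 14.9% of the 9261 genes tested were, with a median log2 fold change of 2.83 against 0.08 over all genes tested, and 23.2% of genes tested were higher without overlap. Without *Pecam1*, 9 of 9 were called and the median was 2.80. Replicate 2 was the highest epithelial library for these 3 genes, and endothelial markers outside the 10 genes summed to 33.2, 36.4 and 23.4 RPKM in replicates 1, 2 and 3, with replicate 2 again the highest. *Tek* was at 2.4, 3.22 and 2.73 RPKM, with a log2 fold change of 2.71 (SE 0.32, limma adjusted p = 0.000497). Outside the endothelium, this was the one population in which *Tek* was near the other receptors.

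**Figure D3:**
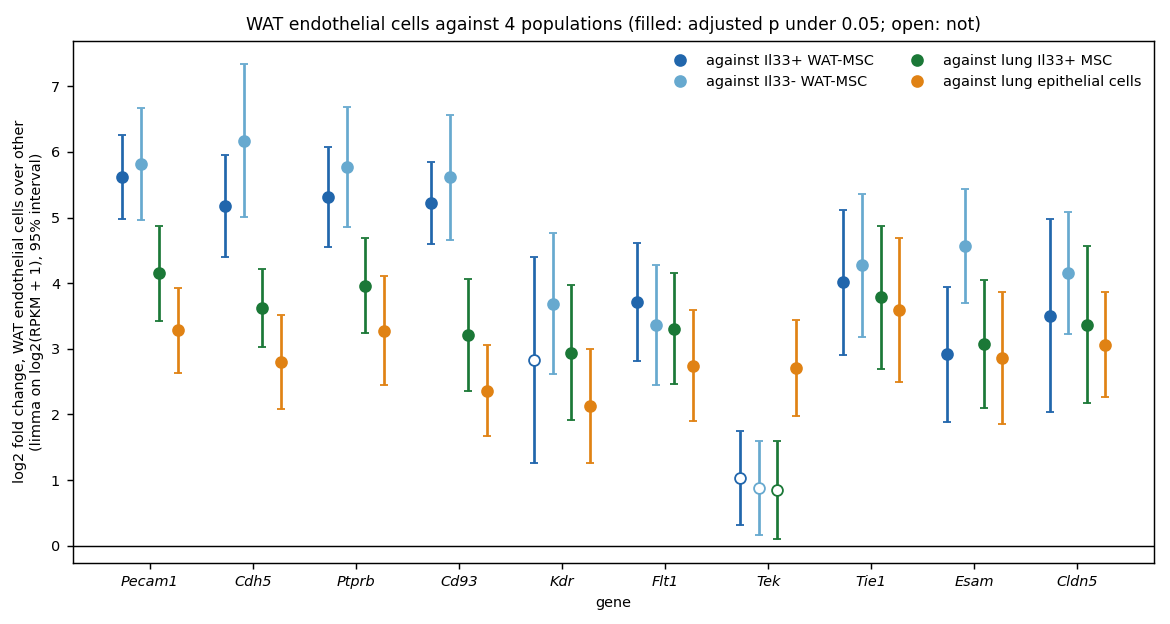
Log2 fold change of each gene in WAT endothelial cells over each of the other 4 populations, fitted by limma on log2(RPKM + 1), with 95% intervals; filled points have an adjusted p under 0.05 and open points do not. The open points are *Kdr* against Il33+ WAT-MSC and *Tek* against the 3 stromal populations.

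By mean level, 6 genes (*Pecam1*, *Cdh5*, *Ptprb*, *Cd93*, *Tie1* and *Flt1*) ran from WAT endothelium through lung epithelium and lung MSC to WAT-MSC, and in *Flt1* Il33- WAT-MSC came before Il33+. For all 10 genes the endothelial libraries lay clear of the next population. Below that, most neighbours overlapped: Il33+ and Il33- WAT-MSC overlapped wherever they were next to each other, and lung epithelium lay clear of lung MSC for *Cdh5* and *Flt1* and overlapped it for *Pecam1*, *Ptprb*, *Cd93* and *Tie1*. *Tek* had an order of its own, with endothelium at 24.2 ± 6.38 RPKM, lung MSC at 13.2 ± 4.53, Il33- WAT-MSC at 12.5 ± 2.25, Il33+ WAT-MSC at 11.3 ± 2.53 and epithelium at 2.78 ± 0.413 (n = 3 each). The 3 stromal populations overlapped one another, and the endothelium above and the epithelium below did not overlap them.

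To compare receptors within a library, *Tek* was set over its partner *Tie1*, each with 0.1 RPKM added, which matters where *Tie1* is near 0.2 RPKM. The ratio was chosen with the level of *Tek* in the stroma already known, so it is a description and no test is given. In the endothelial libraries it was 0.682, 1.19 and 1.39. In Il33+ WAT-MSC it was 35.8, 13.7 and 18.3, and in Il33- WAT-MSC it ran from 30.7 to 49.9. The endothelial libraries thus held the partners at near equal RPKM and the WAT-MSC libraries held *Tek* nearly without *Tie1*. The mean log2 ratio was 0.06 ± 0.54 (SD, n = 3) against 4.81 ± 0.69 (n = 6), a difference of -4.75, and -3.18 with 1 RPKM added in place of 0.1. In lung Il33+ MSC the ratio was 7.79 to 30.4, and in epithelial cells 1.74 to 3.68.

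*Flt1* over *Kdr*, the decoy over the signalling receptor for VEGF-A, was also compared. It was 1.22, 1.13 and 1.24 in the endothelial libraries, although both genes differed there by about a factor of 2 between replicate 1 and the others. It was 0.679, 0.698 and 0.797 in the epithelial libraries, 0.649 to 1.74 in lung Il33+ MSC and 0.114 to 17.6 in the 6 WAT-MSC libraries. The difference in mean log2 ratio between endothelial cells and WAT-MSC was -0.24 (exact two-sided permutation p = 0.833), and its sign changed with the pseudocount, so no difference was detectable, with both genes near or under 1 RPKM in most of these libraries. The test took the 6 WAT-MSC libraries as independent. Whether Il33+ and Il33- libraries share mice is not given in the sources used here.

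**Figure D4:**
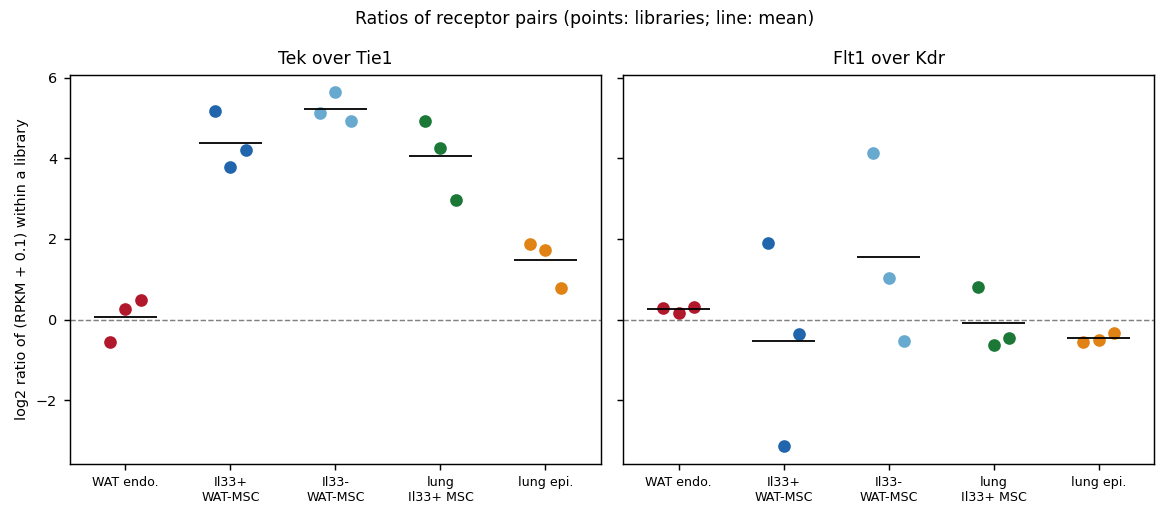
Log2 ratio within each library of *Tek* over *Tie1* (left) and *Flt1* over *Kdr* (right), each RPKM with 0.1 added; points are libraries, black lines are means and the dashed line marks equal levels. *Tek* over *Tie1* lies between 0.682 and 1.39 on the linear scale in endothelium and at 13.7 or above in all 6 WAT-MSC libraries.

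The level of *Tek* was not the same for its listed transcripts. The authors' software assigned 6.63, 36.0 and 27.2% of the *Tek* RPKM in the 3 endothelial libraries to NM_001290551, the transcript without the exon printed above. In Il33+ WAT-MSC it was 34.95, 72.0 and 46.6%, in Il33- WAT-MSC 67.8, 39.0 and 38.0%, and in lung Il33+ MSC 55.5, 51.2 and 60.8%. All stromal libraries but Il33+ WAT-MSC replicate 1 lay above all 3 endothelial libraries, and replicate 1 of the endothelium was the lowest of all. In the epithelial libraries, at under 4 RPKM of *Tek* in sum, the share was 65.4, 64.0 and 42.1%. The pattern was noticed in these values and is given without a test.

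In RPKM, the transcript without exon 4 was at 4.99 ± 2.56 in endothelial cells, 5.93 ± 3.29 in Il33+ WAT-MSC, 5.82 ± 1.22 in Il33- WAT-MSC and 7.21 ± 1.88 in lung Il33+ MSC (n = 3 each), so these 4 populations overlapped. NM_013690 had 9.52 ± 4.34 RPKM in endothelium, against 2.62 ± 1.00, 3.34 ± 1.54 and 2.94 ± 1.34 RPKM in the same 3 stromal populations. NM_001290551 has the highest mean of the 3 transcripts over all 15 libraries, but the lowest in endothelial cells. Where *Tek* was represented by that transcript alone, its log2 fold change turned to -0.23, -0.29 and -0.54 in endothelial cells against the 3 stromal populations, none of them called, and to 1.11 against epithelium (limma adjusted p = 0.113). The transcripts share all other coding exons but for 3 bases at the end of 1 of them, so these are estimated assignments of shared reads, and no reads across the exon's borders were seen here. They also differ outside the coding part. Spliced and coding lengths were 4654 and 3369 bases (NM_013690), 4549 and 3216 (NM_001290551), and 4176 and 3366 (NM_001290549). The part of those other stretches in the assigned shares was not tested.

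**Figure D5:**
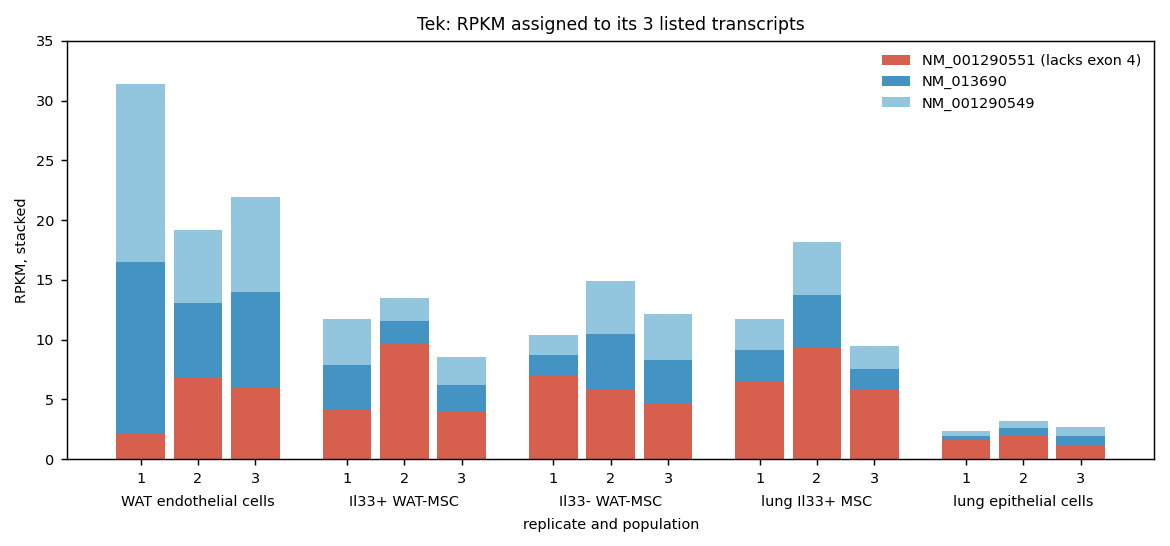
RPKM of *Tek* in each of the 15 libraries, stacked by the 3 listed transcripts; bars start at 0 and are grouped by population and replicate. The transcript without exon 4 stays at 2.08 to 9.73 RPKM in all endothelial and stromal libraries, and the other transcripts account for most of the height of the endothelial bars.

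The genes that belong to the same pathways were described from lists of names. Of 17 further endothelial and co-receptors tested, 12 were called higher in endothelial cells than in Il33+ WAT-MSC and 0 lower, with a median log2 fold change of 2.72. The largest were *S1pr1*, the sphingosine 1-phosphate receptor (39.4 ± 6.31 against 0.54 ± 0.325 RPKM, limma adjusted p = 0.000232), the adhesion receptor *Adgrl4* (35.2 ± 5.53 against 0.573 ± 0.297), the guidance receptor *Robo4* (21.3 ± 9.49 against 0.25 ± 0.185) and *Adgrf5* (132 ± 37.8 against 7.79 ± 4.36). *Nrp1*, a co-receptor for VEGF-A named here after its values were seen, was at 24.0 ± 3.597 and 18.7 ± 2.68 RPKM and was not called. The VEGF-C receptor *Flt4*, which is held mainly by lymphatic endothelium, was at 21.9 ± 9.12 RPKM in the endothelial cells. It is also 1 of the 7 lymphatic markers listed, of which 6, itself included, were called higher there, with *Lyve1*, *Ccl21a* and *Pdpn* at the highest levels. *Pdpn*, which the WAT-MSC gate also selected, was the marker not called.

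Of 16 junction partners tested, 5 were called higher in endothelial cells and 0 lower, with a median log2 fold change of 0.95, well under that of the 10 genes. The 5 were *Rasip1*, a Rap effector of vessels (9.85 ± 6.62 against 0.103 ± 0.0321 RPKM), *F11r*, which encodes JAM-A (49.4 ± 16.7 against 8.37 ± 4.17), the linker *Afdn* (21.1 ± 4.09 against 4.75 ± 0.637), the tight junction scaffold *Tjp1* (62.7 ± 21.9 against 21.3 ± 2.43), and *Jam2* (74.0 ± 15.3 against 27.8 ± 3.22). The catenins that tie VE-cadherin to actin are common to many cells, and *Ctnna1*, *Ctnnb1* and *Ctnnd1*, named after their values were seen, had log2 fold changes of 0.37 to 0.83 with none called. Of 10 signalling adaptors tested, *Nos3*, the endothelial nitric oxide synthase, was the 1 called higher (4.54 ± 1.22 against 0.0233 ± 0.0252 RPKM), and the median was -0.26.

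Of 7 VEGF and angiopoietin ligands tested, 0 were called by limma between endothelial cells and Il33+ WAT-MSC, and 2, *Vegfa* and *Vegfd*, had an unadjusted p under 0.05. *Vegfa* had 11.6 ± 6.26 RPKM in endothelial cells and 32.3 ± 0.790 in Il33+ WAT-MSC, without overlap (limma adjusted p = 0.0902). Against lung Il33+ MSC, 3 of 8 ligands were lower in endothelial cells, where 263 of the 8763 genes tested were called lower: *Vegfd* (16.1 against 125 RPKM), *Angpt1*, which activates Tie2 (1.82 against 8.67 RPKM), and *Angpt4* (0.68 against 13.1 RPKM). *Vegfd*, *Pgf*, *Angpt1* and *Angpt4* were also called higher in lung Il33+ MSC than in Il33+ WAT-MSC, 4 of 7 tested. These ligands were named because they passed the test, after their values were seen.

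Marker lists of other cells gave the composition beside these results. In endothelial cells against Il33+ WAT-MSC, 8 of 9 further endothelial markers tested were called higher, with the largest changes in *Vwf* (52.2 RPKM in endothelial cells), *Erg* (118 RPKM), *Mmrn2* (30.1 RPKM) and *Emcn* (54.1 RPKM). The pericyte and smooth muscle genes *Rgs5* (188 ± 41.2 against 11.9 ± 4.12 RPKM), *Myh11*, *Acta2* and *Mcam* were called higher, 4 of 9 tested. Of 10 stromal markers *Lum* and *Dpt* were called lower, and *Dcn*, which with *Dpt* and *Col1a2* had the highest levels of the list in Il33+ WAT-MSC, had 1108 RPKM in endothelial cells and 2786 in Il33+ WAT-MSC. Of 7 mesothelial markers 0 were called by limma (1, *Upk3b*, at an unadjusted p under 0.05), and their sums in the endothelial libraries were 52.6, 168 and 207 RPKM, with *Upk3b*, *Lrrn4* and *Krt19* the highest. Of 2 leukocyte and platelet markers tested *Cd74* was higher (240 against 7.93 RPKM) and *Fcer1g* was not called, and *Scgb1a1*, the 1 lung epithelial marker tested, was not called.

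Across the 15 libraries, each of the 10 genes but *Tek* followed the mean log2(RPKM + 1) of the other 9 with a Pearson r of 0.883 (*Esam*) to 0.982 (*Ptprb*), and *Tek* with 0.350. These are descriptions over 15 libraries of 5 populations, which share their library scaling. Over 9981 genes, the 10 included, the profile outside the 10 most like their mean was that of *Aqp1*, a water channel (r = 0.982). *Aqp1* was at 139 ± 40.8 RPKM in endothelial cells and 2.65 to 8.86 elsewhere on average. *Rtp3* (0.980), *Ppp1r16b* (0.9746), *Pdgfb* (0.971) and *Gvin1* (0.969) came next. The profiles most like that of *Tek* were *Plekho2* (0.945), *Hsd3b7* (0.938) and *Ptprg* (0.938), which like *Tek* were highest in endothelium, intermediate in the 3 stromal populations (9.06 to 15.3 RPKM on average) and lowest in epithelium (1.10 to 3.11 RPKM).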

How the data were processed

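RNA of sorted cells was amplified and sequenced by the authors. The submitters' processing notes name TopHat2, Partek and mm10. The deposited RPKM values were per RefSeq transcript (12698). How these transcripts were selected is not given in the sources used here, and 0 value columns lacked a sample. One value per gene had been assumed, so RPKM was summed per symbol.

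The 6 comparisons of 3 against 3 libraries used limma 3.58.1 in R 4.3.3 (lmFit, eBayes with trend) on log2(RPKM + 1), for genes of at least 1 RPKM in at least 3 of the 6 libraries, called at a Benjamini-Hochberg adjusted p under 0.05. The fit was run on simulated data with normal errors, where changes were added only to genes clear of 0 in the second group. That check does not cover genes near 0 there. Fits without a library, and median-ratio scaling, kept the genes of the 6-library fit; applying the filter again to 5 libraries was added after the data were seen. The *Flt1* over *Kdr* ratio used an exact permutation test in scipy 1.17.1 under Python 3.11.15.

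The 10 genes and all lists were chosen with earlier results of these data known. Named from each pathway list were up to 4 genes with the largest change past the threshold in endothelial cells against Il33+ WAT-MSC, from the endothelial marker list 4 likewise, from the other marker lists up to 3 by level, and the 5 and 3 genes most like the 10 genes and *Tek*; where 5 or fewer of a list were called, all were named, after their values were seen, and other genes are said to be so named. *Cdh2*, *Krit1*, *Src*, *Rapgef3*, *Higd1b*, *Ptprc*, *Coro1a*, *Itga2b* and *Gp9* were not found among the gene symbols with values. They were therefore not analysed here. Groups and replicate numbers are those of the sample labels.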

Additional observations from a re-analysis of the deposited data

How the results depend on the processing

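The comparisons were refitted under 15 alternatives each. All 10 genes kept their direction in the 4 endothelial comparisons, with the exception of *Tek* under its most abundant transcript (-0.23, -0.29 and -0.54 on the log2 scale against Il33+, Il33- and lung Il33+ MSC). Median-ratio scaling moved the median log2 fold change of all genes by 0.13, 0.12 and -0.18 against Il33+ WAT-MSC, Il33- WAT-MSC and epithelium and left 9, 9 and 10 of the 10 genes called. Against Il33+ WAT-MSC, 7 were called with a pseudocount of 0.1 or no filter, and 10 with all 15 libraries in one fit, which shares 1 estimate of spread. Depth per gene is unknown, so levels near 0 have no lower limit here.

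All 15 libraries in one fit gave 805, 1030 and 1067 calls over all genes for endothelial cells against Il33+, Il33- and lung Il33+ MSC, where the separate fits gave 338, 496 and 622, and 336 against 513 for lung against WAT Il33+ MSC. For Il33+ against Il33- WAT-MSC the 133 calls became 45 without a filter, 88 with the most abundant transcript and 232 with a replicate block; the cause was not tested. Leaving out 1 library gave 131 to 447 calls against Il33+ WAT-MSC (7 to 9 of the 10 genes), 222 to 654 against Il33- WAT-MSC (9), 259 to 995 against lung Il33+ MSC (9), 1850 to 3006 against epithelium (10), 55 to 122 for Il33+ against Il33- WAT-MSC (0) and 261 to 502 for lung against WAT (0 to 4). Applying the filter again to the 5 remaining libraries, an alternative chosen after seeing the data, gave 56 to 261 (5 to 9), 140 to 414 (6 to 9), 228 to 779 (9), 1085 to 2668 (10), 49 to 121 (0) and 191 to 447 (0 to 4); against Il33- WAT-MSC it left 7 of the 10 genes tested when an endothelial library was out, since a gene expressed in endothelium alone then has too few libraries.

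In lung against WAT Il33+ MSC, lane as a covariate left 2 of the 10 genes called. Genes not called there or between WAT-MSC changed sign. In lung against WAT, *Esam* went to 0.29 with lane and ran from -0.61 to 0.25 without 1 library (0.08 and 0.05 without lung replicates 2 and 3), *Kdr* went to 0.27 with a pseudocount of 0.1 and ran from -0.79 to 0.68 (0.26 without lung replicate 1), and *Tek* ran from -0.062 to 0.38. Between WAT-MSC, *Pecam1* went to -0.13 with the most abundant transcript, and without 1 library *Pecam1* ran from -0.17 to 0.44, *Tek* from -0.28 to 0.025 and *Cd93* from -0.050 to 0.74. *Tek* over *Tie1* was -4.32 against Il33+ and -5.18 against Il33- WAT-MSC alone and -4.96 to -4.44 without 1 library. *Flt1* over *Kdr* turned to 0.28 with a pseudocount of 1, 0.80 against Il33+ WAT-MSC alone, and ran from -0.97 to 0.48 without 1 library (0.035 and 0.48 without Il33+ and Il33- WAT-MSC replicate 1).

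The correlations of deviations of same-numbered libraries ran from -0.07 to 0.15 and were above 0 in all 3 pairs of 4 comparisons, but in no comparison did all 3 exceed 0.1, the level set for pairing, so the numbers were not taken as pairs. With a replicate block 335, 680, 676 and 2806 genes were called in the 4 endothelial comparisons (9, 9, 9 and 10 of the 10 genes, *Kdr* against Il33+ WAT-MSC gaining its call), and 454 for lung against WAT (3, *Pecam1* losing its call).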
